A study of Oryctolagus cuniculus with 8 samples.

Results

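Desmosomes and adherens junctions are the contacts that hold the cells of a stratified epithelium together. This account follows 9 of their genes, DSG1, DSG3, DSC2, DSP, PKP1, PERP, JUP, CDH1 and CDH3, out of 20922 gene entries in a table of rabbit limbal RNA, where they were found by their names. Each of the 9 had a single entry, and all 9 were among the 10012 genes that passed the filter on low counts.

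The cells came from the limbus, where cornea and conjunctiva meet. The animals were New Zealand white rabbits, for which the labels give no genotype, age or treatment and body weights from 2.5 kg up to 3.0 to 3.7 kg. The upper weight rises by the same step from each label to the next, from SP 1 to NSP 4. The cells had been stained with the DNA dye Hoechst 33342 and divided into side population (SP) cells, which is the usual name for cells that stay dim by pumping the dye out, and the other cells (NSP). Total RNA of 4 SP and 4 NSP libraries was read on an Ion Proton instrument, and the question was how gene expression differs between the cell groups. Whether a library stands for a single animal or a pool is not stated in the labels, so the p-values cover the spread between these libraries, which may be technical.

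In a desmosome, cadherins of the desmoglein (DSG) and desmocollin (DSC) families meet those of the neighbouring cell. Inside the cell they bind plakoglobin (JUP) and plakophilins (PKP), and desmoplakin (DSP) ties this plaque to the keratin filaments. In an adherens junction, a classical cadherin such as E-cadherin (CDH1) or P-cadherin (CDH3) is joined to the actin cytoskeleton through catenins. Corneal and limbal epithelium rely on both contacts to withstand blinking, and P-cadherin is known as a cadherin of basal epithelial cells.

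The SP libraries held 15553295 to 18931836 exon reads and the NSP libraries 20445565 to 23529101. The summed level of 15 limbal and corneal epithelium markers was 30148 to 52118 CPM (exon reads per 1000000 reads, scaled with TMM factors) in NSP and 1461 to 9910 CPM in SP, with SP replicate 3 lowest and the other SP libraries at 8279 CPM or more. Of these 15 genes, 12 were lower in SP, none was higher and 3 did not pass, among them KRT19, whose mean was 608.0 CPM for SP against 294.4 CPM for NSP; KRT15, KRT12 and SFN had the highest NSP levels. Markers of other cell types ran the other way. The 10 endothelial markers summed to 1973 to 17885 CPM in SP against 9.08 to 15.5 CPM in NSP, and the 11 leukocyte markers to 1673 to 4719 against 33.3 to 40.5 CPM. The 8 stromal markers summed to 2260 to 5352 CPM against 48.7 to 75.0 CPM, but most of the SP sum was VIM, which other cell types also express; without VIM the sums were 212.8 to 384.3 and 36.8 to 53.8 CPM. The 8 melanocyte markers summed to 2146 to 13459 CPM against 149.0 to 306.4 CPM. All tested markers of these lists passed the threshold as higher in SP, namely 10 of 14 listed endothelial, 11 of 14 leukocyte, 7 of 11 stromal and 8 of 10 melanocyte genes, while of the other listed genes the stromal gene KERA failed the filter and the rest had no usable entry. Many of these markers reached the filter through their SP libraries alone and could only come out higher, so the filter fixed their direction. CD8B, COL3A1, LUM and KERA had no NSP read. In bulk RNA, fewer epithelial cells and less junction RNA per epithelial cell cannot be told apart, and the part of the other cells in the results below was not tested.

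Of the 9 junction genes, 8 were lower in SP than in NSP cells and none was higher (limma-voom, Benjamini-Hochberg adjusted p under 0.05 over all tested genes). Among all 10012 tested genes, 13.0% were lower in SP by the same rule and 17.7% higher. Lower genes made up 42.3% of all calls, and 53.1% with upper-quartile scaling, under which the 8 junction genes were called as well. The log2 fold changes of the 9 genes, SP over NSP, had a median of -2.46, beside 0.12 for all tested genes. Together the 9 genes took 0.679% to 0.941% of all exon reads in the NSP libraries and 0.0550% to 0.389% in the SP libraries. The lowest of these shares was that of SP replicate 3, and the other SP libraries held 0.165% or more.

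**Figure D1:**
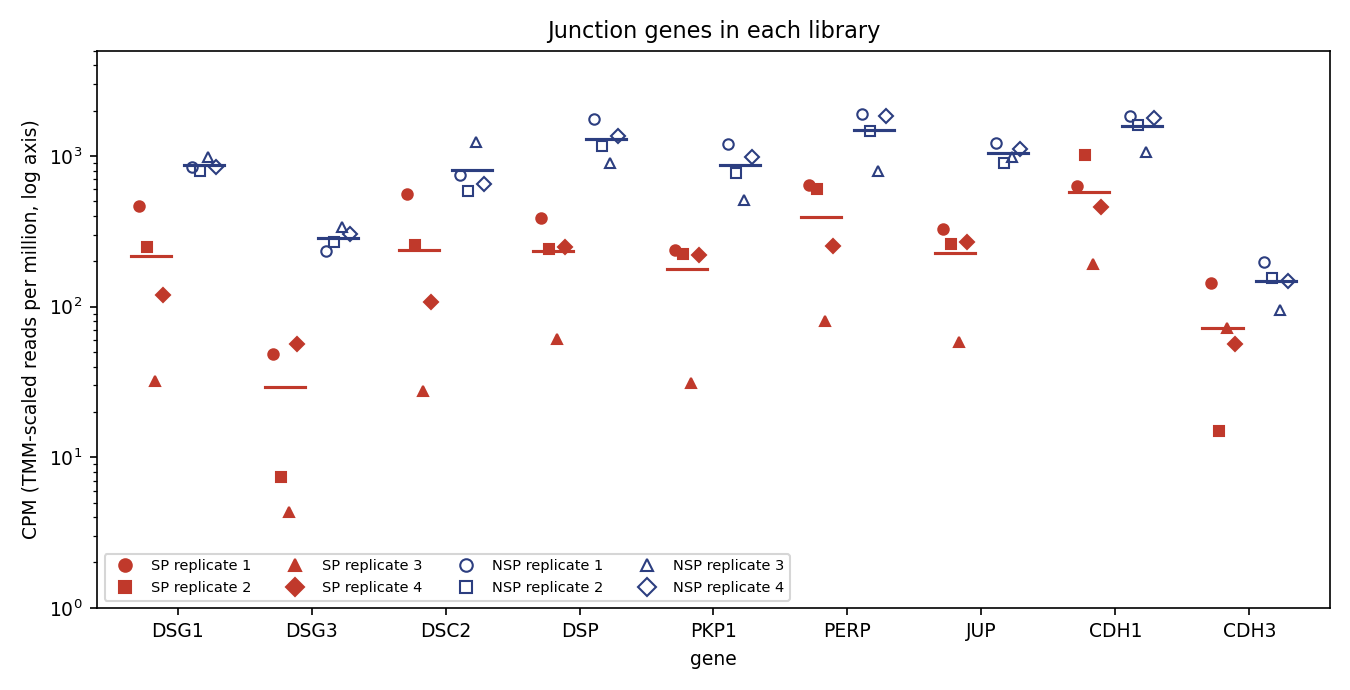
Level of each junction gene in CPM (log axis) in the 4 SP libraries (filled red) and 4 NSP libraries (open blue), with group means as lines and a symbol shape for each replicate name. SP values lie below all NSP values for every gene but CDH3, and SP replicate 3 (filled triangle) is the lowest SP library for every gene but CDH3.

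The 3 desmosomal cadherins were all lower in SP. DSG3, the desmoglein of the basal layers and an autoantigen of pemphigus vulgaris, was at 48.4, 7.44, 4.30 and 56.7 CPM in SP replicates 1 to 4 and at 233.5, 268.3, 339.0 and 304.4 CPM in NSP replicates 1 to 4. All SP libraries were below all NSP libraries, and SP replicates 2 and 3 were far below the other SP libraries. The log2 fold change was -4.11 ± 0.66 (standard error, limma-voom adjusted p = 0.00136), the steepest difference among the 9 genes. DSG1, the desmoglein typical of the upper layers, was at 466.8, 250.6, 32.3 and 119.1 CPM in the SP libraries and 850.8, 799.9, 988.3 and 851.1 CPM in the NSP libraries. Its NSP libraries were close to each other, while its SP libraries covered a 14.5-fold range without reaching the NSP values. The log2 fold change of DSG1 was -2.58 ± 0.67 (limma-voom adjusted p = 0.0145).

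DSC2, a desmocollin found in most tissues with desmosomes, was at 563.8, 254.9, 27.6 and 107.9 CPM in the SP libraries and 744.2, 582.4, 1246 and 647.2 CPM in the NSP libraries. Here SP replicate 1 came within a few percent of the lowest NSP library, and NSP replicate 3 stood well above the other NSP libraries. The log2 fold change was -2.42 ± 0.76 (limma-voom adjusted p = 0.0343), and the call ended without SP replicate 4 or without any NSP replicate, with adjusted p from 0.0588 to 0.0871.

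The plaque genes fell as well, with a narrower range between SP libraries. DSP, the linker to keratin filaments, was at 385.9, 242.1, 60.7 and 250.4 CPM in the SP libraries and 1773, 1163, 899.6 and 1368 CPM in the NSP libraries. The highest SP library was thus well under the lowest NSP library, with a log2 fold change of -2.70 ± 0.51 (Benjamini-Hochberg adjusted p of limma-voom = 0.00306). JUP, which serves desmosomes and adherens junctions alike, was at 325.9, 258.8, 58.1 and 269.6 CPM in the SP libraries and 1218, 903.2, 979.6 and 1110 CPM in the NSP libraries. Apart from SP replicate 3, the SP libraries of JUP were close together, and its log2 fold change was -2.46 ± 0.49 (limma-voom adjusted p = 0.00393).

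PKP1, the plakophilin of stratified epithelia, was at 238.5, 224.6, 30.9 and 220.2 CPM in the SP libraries and 1202, 774.5, 509.1 and 992.0 CPM in the NSP libraries. Its SP replicates 1, 2 and 4 were nearly equal and replicate 3 was far below them, at a log2 fold change of -2.59 ± 0.62 (Benjamini-Hochberg adjusted p of limma-voom = 0.0102). PERP, a tetraspan membrane protein of desmosomes that is a target of the p53 family, was at 641.7, 605.9, 80.7 and 254.2 CPM in the SP libraries and 1895, 1462, 795.4 and 1836 CPM in the NSP libraries. NSP replicate 3 was the lowest NSP library and still above all SP libraries. The log2 fold change of PERP was -2.25 ± 0.61 (limma-voom adjusted p = 0.0183), with adjusted p = 0.0511 without NSP replicate 4.

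The classical cadherins had the fold changes closest to 0 among the 9 genes, a contrast between genes that was not tested. CDH1, the cadherin that defines epithelial adherens junctions, was at 634.8, 1020, 192.9 and 456.6 CPM in the SP libraries and 1844, 1603, 1066 and 1789 CPM in the NSP libraries. The groups were barely apart, since SP replicate 2 nearly reached NSP replicate 3. Its log2 fold change was -1.66 ± 0.45 (limma-voom adjusted p = 0.0185), and without NSP replicate 4 the adjusted p was 0.0519. Leaving out that library ended 3 calls, those of DSC2, PERP and CDH1, and left 5 of the 9 genes called; over all tested genes, the share called lower went from 13.0% to 9.48% without it.

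CDH3 did not pass the threshold. It was at 143.8, 14.99, 72.6 and 56.8 CPM in the SP libraries and 197.7, 154.0, 95.2 and 147.7 CPM in the NSP libraries. The groups overlapped, because SP replicate 1 was above NSP replicate 3, and the lowest SP library was replicate 2 and not replicate 3. The log2 fold change was -1.41 ± 0.56, with a 95% interval from -2.65 to -0.17 before adjustment (limma-voom adjusted p = 0.0823). This value hung on single libraries. It was -1.89 without SP replicate 1, which made CDH3 a called gene (adjusted p = 0.0176), and -0.77 without SP replicate 2 (adjusted p = 0.158). With sample quality weights it was -1.99 (adjusted p = 0.0113).

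The libraries of the groups did not overlap in 8 of the 9 genes, each time with SP lower, which held for 14.0% of all tested genes. Because SP replicate 3 stood apart, the fits were also read without it. The same number of genes, 8, was called lower, and log2 fold changes ran from -3.43 for DSG3 to -1.21 for CDH1, with CDH3 at -1.55 (limma-voom adjusted p = 0.102). In the authors' deposited table, the EDGE test gave a corrected p under 0.05 to 8 of these genes, all lower in SP. By that rule 5.84% of all 20922 entries were called lower, a base that includes entries below the filter, unlike that of the 14.0%. The values of that table ran from a corrected p of 5.39e-06 for DSP to 0.022185 for DSC2, and CDH3 was again the gene that did not pass, at 0.129214.

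**Figure D2:**
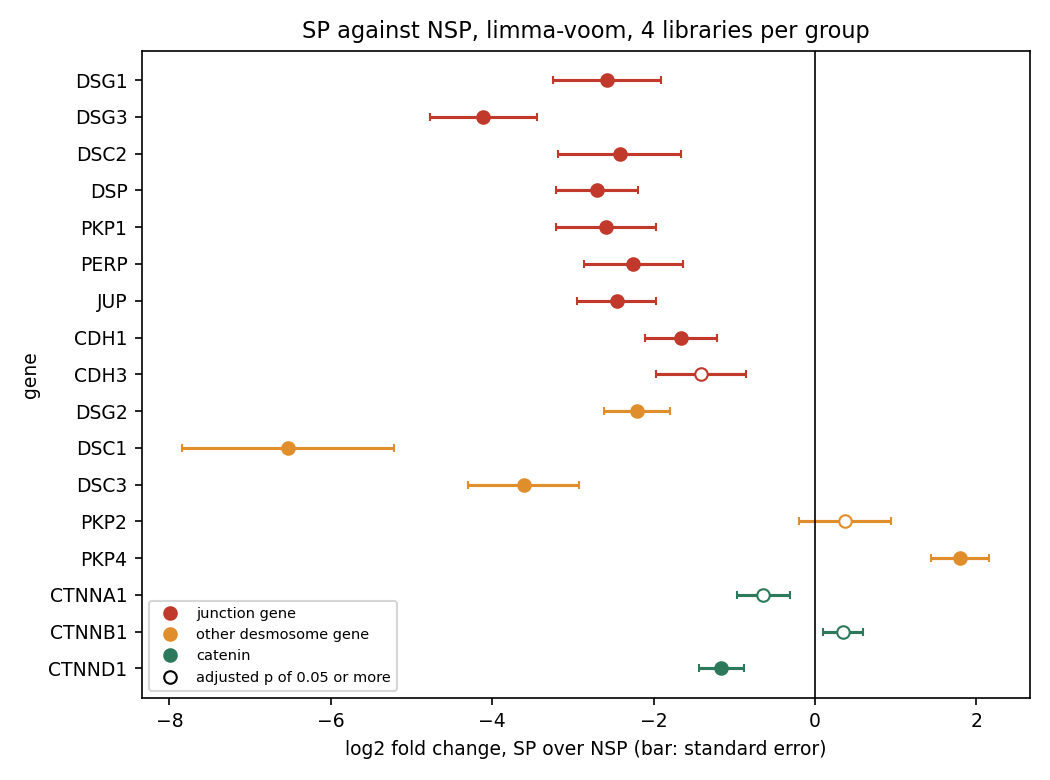
Log2 fold change of SP over NSP with its standard error for the 9 junction genes (red), the other measured desmosome genes (orange) and 3 catenins (green); open points did not pass the adjusted p of 0.05. DSG3 at -4.11 is the lowest of the 9 genes, CDH3 at -1.41 did not pass, and PKP4 lies on the other side of 0 at 1.80.

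Levels of different genes were set side by side per kilobase of exon length, as CPM per kilobase, with exon lengths from the deposited table. In NSP cells PERP ranked highest, at 788.8 ± 266.4 (SD, n = 4) CPM per kilobase. JUP (361.3 ± 47.9), PKP1 (352.3 ± 120.3) and CDH1 (331.6 ± 74.7) came next, and their order changed from library to library. The levels of DSC2 (169.8 ± 63.6), DSP (149.6 ± 42.4) and DSG1 (115.8 ± 10.7) followed with overlapping ranges. DSG3 (56.8 ± 9.04) and CDH3 (39.8 ± 11.3) were lowest, and DSG3 was above CDH3 in 3 of 4 NSP libraries. In SP cells PERP again ranked highest and above CDH1 in 4 of 4 libraries, at 208.4 ± 143.9 against 121.3 ± 73.1 CPM per kilobase. DSG3 had the lowest SP level, 5.80 ± 5.40 CPM per kilobase, below CDH3 (19.3 ± 14.4) in 4 of 4 libraries. DSG3 and CDH3 thus had opposite orders in most libraries of the groups, a difference that was not tested.

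The ratio of the highest to the lowest library had a median over the 9 genes of 7.95 in SP and 1.97 in NSP. For all 10012 tested genes the medians were 2.51 and 1.76, and for the 1101 genes whose NSP mean lay within the range of the junction genes they were 2.02 and 1.51. The SP value of the 9 genes rested on SP replicate 3. Without it the median was 2.52, beside 2.17 for all tested genes and 1.8 for the genes of like NSP level. PKP1 (1.08), JUP (1.26) and DSP (1.59) then had the narrowest ranges, and CDH3 (9.60), DSG3 (7.62) and DSC2 (5.22) the widest. Over all 4 SP libraries DSC2 had the widest SP range, 20.4-fold, and CDH1 the narrowest, 5.29-fold.

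Relative to the NSP mean of each gene, SP replicate 3 held between 1.5% (DSG3) and 48.8% (CDH3) of it, with a median of 4.67% over the 9 genes. The medians of SP replicates 1, 2 and 4 were 40.3%, 25.8% and 19.8%. SP replicate 3 was lowest for 8 of the 9 genes and SP replicate 1 highest for 7. DSG1, DSC2, PKP1 and PERP ordered the SP libraries as 1, 2, 4 and 3 from high to low, which was also the order of the summed epithelium markers (9910, 8628, 8279 and 1461 CPM). In that sum KRT12 made up 3830 CPM in SP replicate 1 against 169.0 to 644.4 CPM in the other SP libraries. The place of SP replicate 1 at the top of the sum leaned on this gene. DSP and JUP ordered the SP libraries as 1, 4, 2 and 3, DSG3 as 4, 1, 2 and 3 and CDH1 as 2, 1, 4 and 3. CDH3 ordered them as 1, 3, 4 and 2, which was the order of the summed melanocyte markers (13459, 8297, 2684 and 2146 CPM). This match was picked from the orders of all 9 genes and the marker sums. In NSP replicates 1 to 4 the melanocyte markers summed to 218.7, 222.8, 149.0 and 306.4 CPM. CDH3 was at 197.7, 154.0, 95.2 and 147.7 CPM there, in another order. The part of melanocyte RNA in the CDH3 values was not tested.

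**Figure D3:**
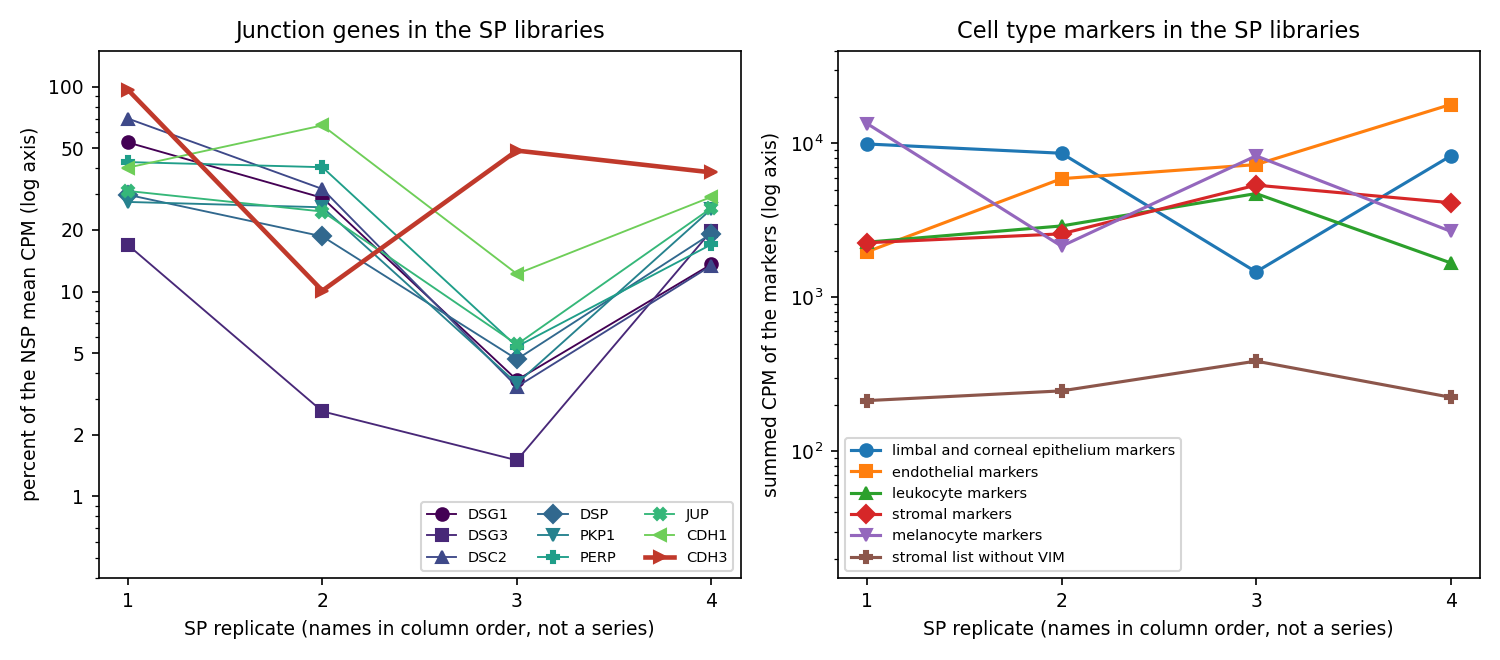
Left, each junction gene in the 4 SP libraries as percent of its NSP mean (log axis); right, summed CPM of the cell type markers, with the stromal list also drawn without VIM, in the same libraries (log axis). Lines only join the values of a gene or list; CDH3 (thick red) is at 48.8% in SP replicate 3, where the other 8 genes are at 12.2% or less.

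Ratios of reads within a library need no scaling between libraries, and 4 were compared by an exact permutation test over the 70 possible assignments of group names, two-sided, adjusted over the 4 ratios. The smallest p this test can give is 0.0286, so that an adjusted p under 0.05 needs at least 3 of the 4 ratios at that value. JUP against CTNNB1, which encodes the related armadillo protein beta-catenin of the adherens junction, had log2 ratios of -1.40, -1.82, -4.16 and -1.58 in SP and 0.40, 0.33, 1.08 and 0.46 in NSP. All SP libraries were thus lower, in each of which CTNNB1 had more reads than JUP, the reverse of NSP. Such a ratio still depends on the mix of cells in a library, whose part here was not tested. The mean difference was -2.81 (exact permutation p = 0.0286, the smallest possible; adjusted p = 0.114).

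DSG3 against DSG1 had log2 ratios of -3.27, -5.07, -2.90 and -1.07 in SP and -1.87, -1.58, -1.54 and -1.48 in NSP. SP replicates 1 to 3 were lower than all NSP libraries and SP replicate 4 was higher than all of them, so the mean difference of -1.46 was within the spread (exact permutation p = 0.143, adjusted p = 0.286). This difference was -0.80 without SP replicate 2 and -2.13 without SP replicate 4 (adjusted p of the exact permutation test 0.381 and 0.0571). CDH3 against CDH1 had log2 ratios of -2.14, -6.09, -1.41 and -3.01 in SP, on both sides of the NSP values of -3.22, -3.38, -3.49 and -3.60. SP replicate 2 was below all NSP libraries and the other SP libraries were above all of them. The mean difference was 0.26 (exact permutation p = 0.886, adjusted p = 0.886), with an SD of 2.06 in SP against 0.16 in NSP. Without SP replicate 2 this difference was 1.24 (adjusted p of the exact permutation test 0.0571). PKP1 against DSP differed by 0.12 (exact permutation p = 0.629, adjusted p = 0.838), with log2 means of -0.49 ± 0.41 in SP and -0.61 ± 0.15 in NSP (SD, n = 4). No ratio passed after adjustment.

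**Figure D4:**
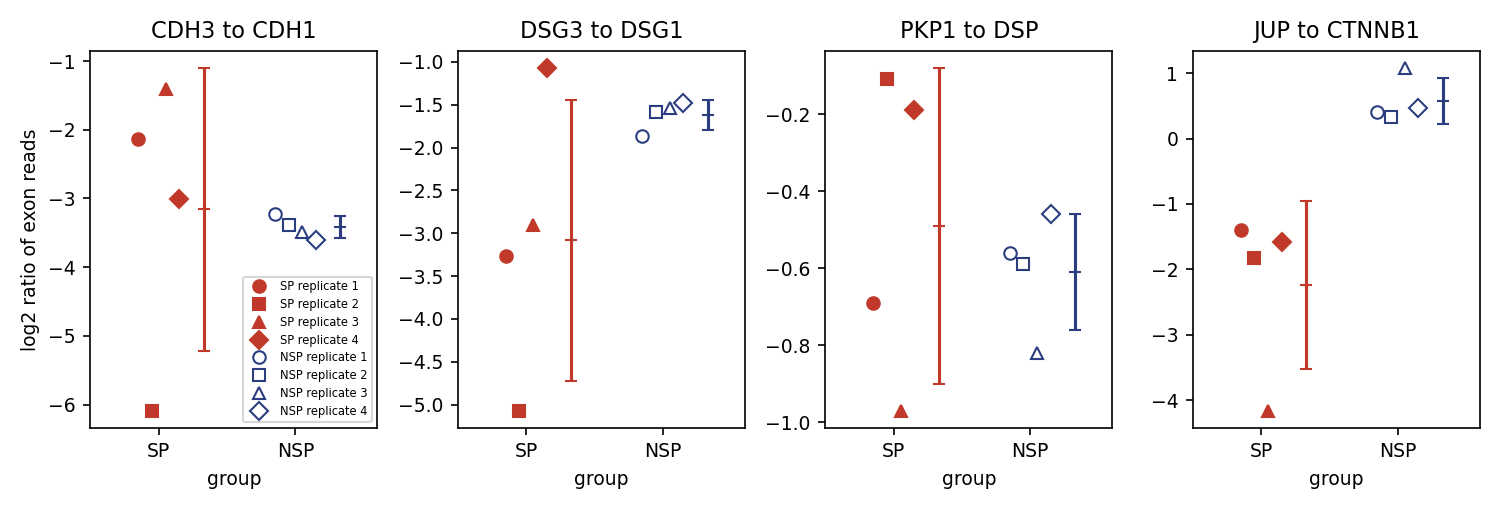
Log2 ratio of exon reads within each library for 4 gene pairs, SP filled red and NSP open blue, with the mean and SD beside the points (each panel has its own vertical scale). The JUP to CTNNB1 ratio lies between -4.16 and -1.40 in SP and between 0.33 and 1.08 in NSP. For CDH3 to CDH1, SP replicate 2 lies below all NSP points and the other SP points lie above them.

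Among 9 other listed desmosome genes, 6 had a usable entry and 5 passed the filter. Of these 5, 3 were lower in SP, 1 was higher and 1 did not pass (median log2 fold change -2.21). By the same rule 13.0% of all tested genes were lower and 17.7% higher, shares that also stand beside the lists below. DSG2, the desmoglein of simple epithelia, was at 37.6 ± 22.6 CPM in the SP libraries and 150.2 ± 19.6 CPM in NSP (SD, n = 4), a log2 fold change of -2.21 ± 0.41 (Benjamini-Hochberg adjusted p of limma-voom = 0.00292). DSC3, the basal desmocollin, was at 50.8, 17.7, 1.83 and 13.9 CPM in the SP libraries and 129.7 to 179.1 CPM in NSP, with a log2 fold change of -3.61 ± 0.69 (Benjamini-Hochberg adjusted p of limma-voom = 0.00327). DSC1, a desmocollin of keratinizing layers, was rare, with 770 NSP reads in all and 56 SP reads, which all came from SP replicate 1 (limma-voom adjusted p = 0.00422). DSG4 had 23 NSP reads and no SP read and was not tested.

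In the RefSeq annotation of the assembly mOryCun1.1, the desmosomal cadherin genes lie next to each other in the order DSG2, DSG3, DSG4, DSG1, DSC1, DSC2 and DSC3, followed by CDH2, and CDH3 lies next to CDH1. The 6 tested genes of the desmosomal row were lower in SP, but DSC1 passed the filter only through its NSP libraries and could only come out lower. The neighbours CDH3 and CDH1 were the junction genes with the smallest differences. CDH2 was not analysed here.

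Plakophilins did not move together. Beside the fall of PKP1, the plakophilin-related gene PKP4 rose from 27.1 ± 10.4 to 92.2 ± 30.1 CPM (log2 fold change 1.80 ± 0.36, limma-voom adjusted p = 0.00403). PKP4 was at 64.5, 84.1, 85.1 and 135 CPM in SP replicates 1 to 4, where the endothelial markers summed to 1973, 5897, 7278 and 17885 CPM. The part of endothelial RNA in the PKP4 rise was not tested. PKP2, a plakophilin of heart and simple epithelia that was picked after its values were seen, was at 166.0, 258.8, 29.5 and 56.8 CPM in the SP libraries and 67.1 to 74.6 CPM in the NSP libraries. Its SP libraries lay on both sides of NSP, and its log2 fold change of 0.37 ± 0.57 did not pass (limma-voom adjusted p = 0.657) and turned to -0.13 without SP replicate 2. PKP3 was not analysed here.

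Of the catenins, which couple cadherins to actin, CTNND1, CTNNA1 and CTNNB1 had fold changes nearer to 0 than the tested cadherins of the desmosome. JUP, a catenin as well, was at -2.46. The contrast between catenins and cadherins was not tested. CTNND1 (p120-catenin), which holds cadherins at the membrane, fell from 546.1 ± 59.1 to 255.3 ± 86.5 CPM (log2 fold change -1.16 ± 0.28, limma-voom adjusted p = 0.01003). CTNNA1 (alpha-catenin) was at 890.4, 1461, 575.5 and 1545 CPM in the SP libraries and 1460 to 2033 CPM in the NSP libraries, a log2 fold change of -0.64 ± 0.33 (Benjamini-Hochberg adjusted p of limma-voom = 0.162). The CTNNA1 value was -0.97 with a call without SP replicate 4 (adjusted p = 0.0494) and -0.36 without SP replicate 3. CTNNB1 was at 805.4 to 1037 CPM in the SP libraries and 462.0 to 922.5 CPM in NSP, at 0.35 ± 0.25 (limma-voom adjusted p = 0.321), and at 0.14 without NSP replicate 3. These SP libraries thus held CTNNA1 and CTNNB1 RNA at levels that overlapped with NSP.

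Of 31 listed catenins, linkers and nectins, 20 were tested, of which 6 fell, 3 rose and 11 did not pass (median log2 fold change -0.56). Among all tested genes 13.0% fell and 17.7% rose, so falls were more frequent in this list and rises were not, a contrast that was not tested. Beside CTNND1, the falls included AJUBA (-2.77), a LIM protein that binds alpha-catenin, the receptor phosphatase PTPRF (-2.55) and the nectin gene listed under its older symbol PVRL1 (-2.96). The rises were PTPRM (5.43), a receptor phosphatase of cell contacts, CTNNAL1 (2.00), an alpha-catenin relative, and ACTN1 (2.09), an actin cross-linker. The number of rises was 5 with sample quality weights and 5 without SP replicate 4. PTPRM, CTNNAL1 and ACTN1 were highest in SP replicate 4, at 234.7, 79.2 and 1389 CPM, the library with the highest summed endothelial markers. What part endothelial RNA had in these rises was not tested.

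Among 21 other cadherins listed, 16 had a usable entry and 8 were tested, with 3 lower, 2 higher and 3 that did not pass. CDH5, CDH11, CDH8 and CDH10, which make up 4 of these 5 calls, reached the filter through the group where they were high, so the filter fixed their direction. CDH5, the cadherin of endothelial adherens junctions, was at 15.7, 89.6, 70.8 and 141.8 CPM in SP with 2 reads in all NSP libraries, a level 3218 times that of NSP, where counting error alone allows 890.3 to 26576 (exact 95% interval). CDH5 was lowest in SP replicate 1, where DSG1, DSC2, DSP, PKP1, PERP, JUP and CDH3 were highest. CDH11, a cadherin of mesenchymal cells, rose (4.66 ± 1.18, limma-voom adjusted p = 0.0134) from 11 NSP reads in all, and its call ended without NSP replicate 2 or 3 (adjusted p = 0.0632 and 0.0537), leaving 1 rise in each case. CDH23 (-4.78), CDH8 (-5.55) and CDH10 (-7.99) fell, with CDH23 at 7.32 ± 8.26 CPM in SP cells against 122.2 ± 33.4 CPM in NSP cells.

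Repressors of epithelial cadherins moved both ways, and the called epithelial regulators all fell. Of 9 listed repressors 4 were tested, of which ZEB1 and TCF4 rose, SNAI2 fell and SNAI1 did not pass. ZEB1 was at 20.9 to 35.5 CPM in the SP libraries and at most 0.462 CPM in the NSP libraries. It passed the filter only through its SP libraries and could only come out higher. SNAI2, by contrast, was at 37.8 to 140.5 CPM in the SP libraries and 304.6 to 522.9 CPM in NSP. Of 12 tested epithelial regulators, out of 14 listed, 8 fell and none rose, among them TP63, PAX6 and ESRP1 (-2.15), a splicing regulator of epithelia. The list shares genes, such as TP63 and PAX6, with the epithelium markers above. TP63 encodes a regulator known to drive PERP, and it was at 25.4, 2.02, 1.56 and 24.1 CPM in SP and 189.3 to 391.1 CPM in NSP. In SP replicate 2, TP63 and DSG3 were low (2.02 and 7.44 CPM) while PERP and CDH1 were at 605.9 and 1020 CPM. In SP replicate 3, TP63, DSG3, PERP and CDH1 were at 1.56, 4.30, 80.7 and 192.9 CPM, each its lowest SP value. A link between TP63 and these genes was not tested.

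Over the 8 libraries, log2 CPM (0.5 added) of single junction genes followed the mean of the other 8 with r between 0.91 and 0.99, and CDH3 with r = 0.52. These correlations hold the difference between the groups and describe 8 libraries. The 5 other named genes closest to the mean of the 9 were RAPGEFL1 (r = 0.994), SOWAHC (0.993), SERPINB2 (0.991), which encodes a plasminogen activator inhibitor, FARP1 (0.991) and MGARP (0.990). Their log2 fold changes lay between -3.74 (MGARP) and -1.41 (FARP1). SERPINB2 had a mean of 395.5 CPM in the SP libraries and 2058 CPM in the NSP libraries, and MGARP one of 317.6 and 3056 CPM.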

How the data were processed

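The authors deposited 1 fixed-width text table (163 fields of 8 characters, 6 stacked blocks), which was read by character position. For each library the deposited whole-number exon read count was used, unscaled, with the exon length that the table repeats for every library. Both were identified by their values, since headers are cut off and show no measure. Group means recomputed from these counts lay within 0.05 of the deposited ones. EDGE results are the authors', per the file headers. What aligner, genome build or annotation was used is not given in the sources used here. Another 143 per-library fields were not used here. Headers show the group alone, and replicate names 1 to 4 follow column order.

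Of 20922 entries, 10916 had a usable name; names are cut at 8 characters and longer ones were completed from RefSeq symbols. Unnamed entries stayed in totals and tests. TMM factors (trims of 30% and 5%) scaled the counts, and the filter asked for a CPM of 0.508 in 4 libraries and 15 reads in all. The test was limma-voom (version 3.58.1 of limma, R 4.3.3) with group as its only term, two-sided; calls need a Benjamini-Hochberg adjusted p under 0.05. A count test of edgeR could also take these counts and was not run. The fit was tried on simulated counts with the same spread in both groups, which does not cover the wider SP spread of the junction genes. Other software was Python 3.11.15 with pandas 2.3.3, matplotlib 3.10.9 and NumPy 2.4.6. Alternatives were other scalings, filters and fits and leaving out each library.

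The 9 genes and all gene lists were chosen with earlier results of these data known. Beside the 9 genes, the text names up to 4 called genes of smallest p for each list and direction, 8 genes fixed by name, and the 5 genes most like the 9. A gene that this rule names is not reported here; it stayed in all tests and counts. Counting intervals cover counting error only.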

Additional observations from a re-analysis of the deposited data

Results flagged for a closer look

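In the SP group the low library of PKP1 lay far from the others. SP replicate 3 was at 30.9 CPM and the other SP libraries at 220.2 to 238.5 CPM, which gave a Dixon ratio of 0.912, above the 95% critical value for groups of 4. No other of the 9 genes had such a library in either group, and chance marks about 1 in 20 groups. Without SP replicate 3, the log2 fold change of PKP1 was -1.86 (adjusted p = 0.00223 by limma-voom), against -2.59 with it.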

How the results depend on the processing

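Of the 9 genes, 8 were called lower and none higher under both other scalings, both other filters and limma-trend; with sample quality weights CDH3 (-1.99) was called too. Median-ratio and upper-quartile factors moved the median of all tested genes by -0.12 and -0.18. Leaving out single libraries gave 5 to 9 lower genes, with 5 without NSP replicate 4. Log2 fold changes then ranged from -3.07 to -1.62 for DSC2, -2.61 to -1.62 for PERP, -2.01 to -1.21 for CDH1 and -1.89 to -0.77 for CDH3; DSG1, DSG3, DSP, PKP1 and JUP stayed called in each of these fits. Rises among catenins, linkers and nectins ranged from 3 to 5 (5 with quality weights) and among other cadherins from 1 to 3. The ratio difference of CDH3 to CDH1 ranged from -0.32 to 1.24, turning to -0.08 without SP replicate 1 and -0.32 without SP replicate 3. That of DSG3 to DSG1 ranged from -2.13 to -0.80. That of PKP1 to DSP ranged from -0.01 to 0.28, turning to -0.01 without SP replicate 2, and PKP2 ranged from -0.13, without the same library, to 0.92. The median SP range of the 9 genes fell from 7.95 to 2.52 without SP replicate 3, and this and the stromal sum without VIM were chosen after seeing the data. Where a call or direction changed, the cause was not tested. No paired analysis was possible because the columns carry no replicate number. The lowest count among the 9 genes was 80 reads (DSG3 in SP replicate 3), so depth limits DSG3 most.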
